A study of Homo sapiens with 4 samples.

Results

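The 10 core genes of non-homologous end joining were followed in RNA sequencing counts of the hTERT-RPE1 line, telomerase-immortalised human cells from the retinal pigment epithelium. They were taken by gene symbol from the deposited table and are 10 of its 19653 gene identifiers: XRCC5, XRCC6, PRKDC, LIG4, XRCC4, NHEJ1, DCLRE1C, POLL, POLM and ATM. The control group, labelled sgControl and wild type, carried the lentiviral Cas9 vector with no guide. The other group, labelled sg53BP1 and 53BP1 knockout, carried a guide against 53BP1, and neither group was treated otherwise. Each group had 2 libraries, and the sources used here do not say whether the cells were 1 clone or a pool, or whether the libraries came from separate cultures. The p-values therefore rest on the spread between libraries, and that spread may be technical.

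Non-homologous end joining rejoins the ends of a DNA double-strand break without a template. Ku, a ring of the XRCC5 and XRCC6 proteins, slides onto the ends and recruits the kinase DNA-PKcs, after which ends are trimmed or filled and then sealed by DNA ligase IV with its partners XRCC4 and XLF. 53BP1 acts upstream, on the chromatin around the break, where it protects ends from resection and so favours this route, while the kinase ATM starts the signal that recruits it. The mechanism serves all dividing and resting cells and is also used for antigen receptor assembly in lymphocytes.

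Library totals lay between 16654411 and 18164086 counts, and the core genes together took 0.165% to 0.190% of the counts in the sgControl libraries and 0.207% to 0.223% in the sg53BP1 libraries. XRCC5, XRCC6 and PRKDC made up most of this share, so it says little of the other core genes. TP53BP1, the targeted gene, did not check the labels, since it was 2.94-fold higher in the libraries labelled sg53BP1 (log2 fold change 1.56, standard error 0.18, edgeR quasi-likelihood test with Benjamini-Hochberg adjustment, adjusted p = 0.00224). Exons of TUBGCP4 cover 28.7% of its exon bases. All directions below are those of the labels and would turn if the labels were exchanged. Of the markers of retinal pigment epithelium, KRT8 and KRT18 had 1821 or more counts in every library and the regulators MITF and OTX2 had 114 or more. PMEL had 17 to 30 counts, BEST1 and RLBP1 had 1 to 25 and TYR 0 to 2, and RPE65 was not analysed here. The lymphoid marker PTPRC had 0 to 8 counts, and RAG1 had 7 to 51. The summed level of 5 fibroblast markers was 336 to 378 CPM in the sgControl and 203 to 213 CPM in the sg53BP1 libraries. Of these, THY1 (log2 fold change −0.85, edgeR adjusted p = 0.00602) and PDGFRA (−1.90, 0.0386) passed the test and were lower. Of all tested genes 5.08% passed in either direction, and PDGFRA had only 15 to 67 counts a library. FAP (log2 fold change −0.82, edgeR adjusted p = 0.0658) and PDGFRB (−0.44, 0.165) did not pass, and COL1A1 (0.16, 0.765) overlapped between the groups. Their part in the results on end-joining genes was not tested.

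The promoters of XRCC6, LIG4 and XRCC4 are printed because these genes stood higher in both sg53BP1 libraries while the genes that start beside them on the other strand had negative log2 fold changes. Each sequence is the 250 bases before the RefSeq transcript start nearest to the annotated gene start, on build GRCh38.p14, 5′ to 3′ on the strand of the gene. This RefSeq start lay 176 bases from the annotated gene start for XRCC6, 19 bases for LIG4 and 49 bases for XRCC4. Only the size of this distance was recorded, so part of a window may lie within the annotated gene itself. Each window also reaches into the annotated gene that starts beside it on the other strand. The distances between neighbouring genes given below are between annotated gene starts. Capitals mark matches, on either strand, to a CCAAT box (CCAAT), a GC box (GGGCGG), an ETS core (CCGGAAGT), an NRF1 core (GCATGCGC) or an E2F site (TTTCCCGC or TTTGGCGC).
XRCC6, chr22:41621045-41621294, plus strand: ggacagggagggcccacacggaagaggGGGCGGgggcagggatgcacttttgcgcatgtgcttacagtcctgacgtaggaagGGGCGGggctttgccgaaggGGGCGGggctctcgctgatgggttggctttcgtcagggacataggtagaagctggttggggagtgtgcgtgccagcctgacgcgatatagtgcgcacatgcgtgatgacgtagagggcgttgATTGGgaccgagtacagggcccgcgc
LIG4, chr13:108218350-108218599, minus strand: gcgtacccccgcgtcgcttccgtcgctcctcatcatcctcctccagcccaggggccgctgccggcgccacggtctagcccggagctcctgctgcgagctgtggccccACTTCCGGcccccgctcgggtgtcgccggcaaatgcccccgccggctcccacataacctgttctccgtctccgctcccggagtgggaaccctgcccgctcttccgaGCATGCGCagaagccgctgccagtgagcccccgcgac
XRCC4, chr5:83077297-83077546, plus strand: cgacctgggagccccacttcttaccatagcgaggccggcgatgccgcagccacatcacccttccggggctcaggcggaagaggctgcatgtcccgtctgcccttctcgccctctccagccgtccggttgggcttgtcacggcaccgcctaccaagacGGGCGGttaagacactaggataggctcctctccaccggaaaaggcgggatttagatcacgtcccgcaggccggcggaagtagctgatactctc

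The XRCC6 window held 3 GC boxes, beginning 223, 168 and 148 bases before the start, and 1 CCAAT box on the other strand at 26 bases. The LIG4 window held an ETS core on the other strand at 143 bases and an NRF1 core at 37 bases. The XRCC4 window held 1 GC box at 93 bases. None of these matches overlapped another. Among 35116 RefSeq windows of the same length, 42.6% held a GC box, 32.0% a CCAAT box, 3.42% an ETS core, 2.63% an NRF1 core, and 1.39% and 0.55% the respective E2F letters. Neither spelling of the E2F site was found in the 8 core gene windows searched. XRCC5 and PRKDC were not among these, so nothing is said of their promoters. A match is a description of letters, and no measurement of binding was made.

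The Ku subunits had the highest levels of the core genes, followed by PRKDC. Counts were scaled to CPM, counts per 1000000 of the library total after TMM scaling, and divided by the kilobases of annotated exon so that genes could be set beside each other. In the sgControl libraries the mean level per length was 156 ± 15.4 CPM per kb (SD, n = 2) for XRCC6, 102 ± 17.6 for XRCC5 and 33.4 ± 3.78 for PRKDC. LIG4 followed at 8.03 ± 0.369 CPM per kb and XRCC4 at 5.94 ± 0.162, then POLL at 4.76 ± 0.162, ATM at 3.81 ± 1.30, POLM at 3.21 ± 0.301 and DCLRE1C at 1.97 ± 0.0840. The ranges over the 4 libraries of ATM overlapped those of POLL and POLM. POLL was higher per length than ATM within every library, while the order of ATM and POLM changed between libraries. LIG4 was higher per length than XRCC4 within every library, although the LIG4 level of the sgControl libraries overlapped the XRCC4 level of the sg53BP1 libraries. Exon lengths came from GENCODE release 29, which counts all annotated exons of a gene on a genome build other than that of the counts, so a gene with long, rarely used exons is placed too low.

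**Figure D1:**
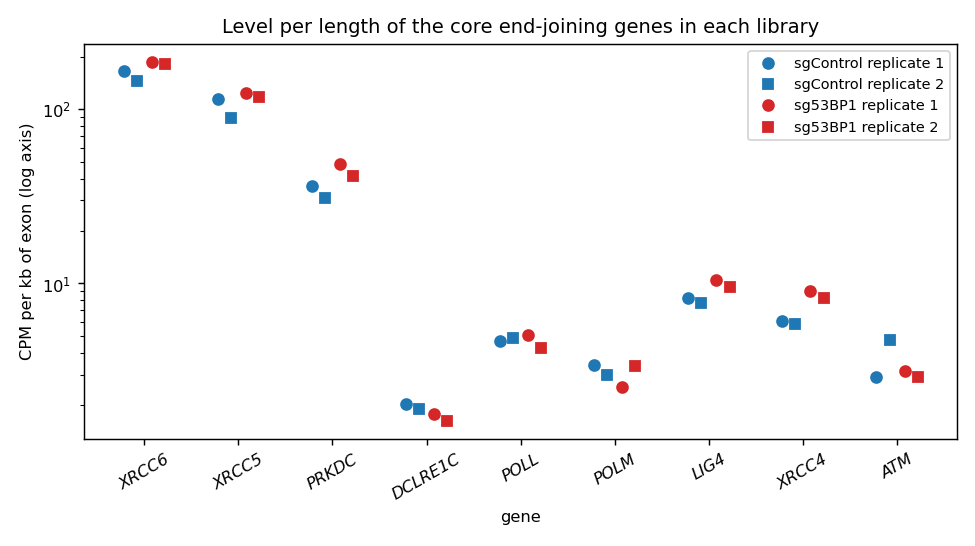
Level of 9 core end-joining genes in CPM per kb of annotated exon (log axis), with 1 point for each of the 4 libraries: circles are replicate 1 and squares replicate 2, sgControl blue and sg53BP1 red. XRCC6 and XRCC5 lie above all others in every library, and the ATM point of sgControl replicate 2 stands apart at 4.73 CPM per kb.

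No core end-joining gene passed the test between the groups. Of the 10 genes 9 passed the low-count filter, and 0 of these 9 reached an adjusted p of 0.05, while 5.08% of all 13140 tested genes did (edgeR quasi-likelihood test). At an unadjusted p under 0.05 there were 3, XRCC4, PRKDC and LIG4, all higher in the libraries labelled sg53BP1, against 8.41% of all tested genes in that direction. The DESeq2 Wald test called 0 of the 9 (7.71% of all genes with an adjusted p) and limma-voom called 0 (3.07% of all genes). The level in both sg53BP1 libraries lay above both sgControl libraries for 5 of the 9, XRCC5, XRCC6, PRKDC, LIG4 and XRCC4, an arrangement that 24.8% of all tested genes had. DCLRE1C was the only core gene lower in both, as were 25.9% of all tested genes, and POLL, POLM and ATM overlapped. The median log2 fold change of the 9 was 0.24, with a range from −0.34 to 0.54, and that of all tested genes was −0.02. Leaving out sgControl replicate 1 moved the median of the 9 to 0.38 and leaving out sgControl replicate 2 moved it to 0.088, and it was 0.11 when the low-count filter was dropped and NHEJ1 entered.

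These counts depended on the libraries entered. Without sgControl replicate 1 the edgeR test called 6 of the 9 genes, 5 higher and ATM lower, where 24.5% of all tested genes were called. Without sgControl replicate 2 it called 2, PRKDC and XRCC4, both higher, where 18.4% of all tested genes were called. Without either sg53BP1 library it called 0 of the 9 and 5 genes in all, and none of TP53BP1, MCM4, LIG1, THY1 and PDGFRA passed. When an sgControl library was left out the spread came only from the sg53BP1 pair, which lay closer together: the median gap between its libraries was 0.15 on the log2 scale over all tested genes, against 0.23 for the sgControl pair. PRKDC also passed when no low-count filter was applied (adjusted p = 0.0236, with 7.88% of all genes called).

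**Figure D2:**
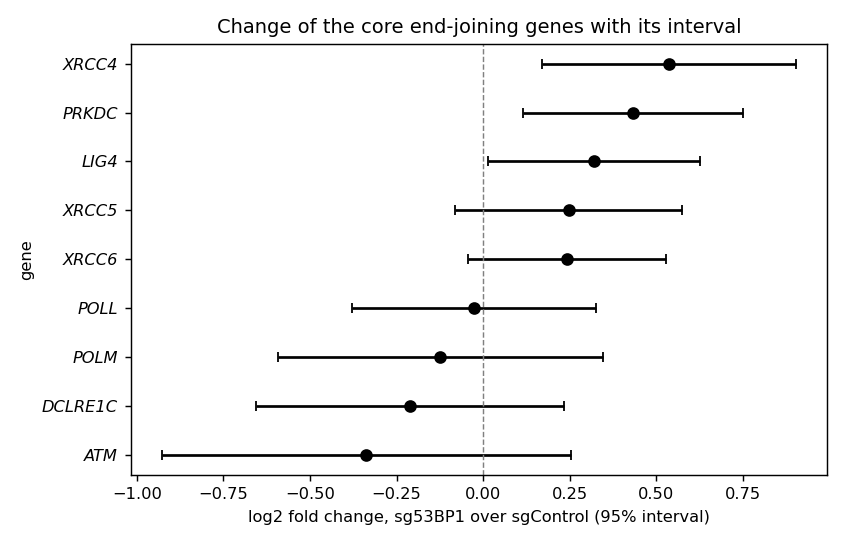
Log2 fold change of the 9 tested core end-joining genes, sg53BP1 over sgControl, from the edgeR fit to all 4 libraries, with bars for the 95% interval. The intervals of XRCC4, PRKDC and LIG4 lie above 0 before adjustment for the number of genes tested, and those of the other 6 include 0.

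The Ku subunits bind broken ends first and hold each other in the cell as a pair. XRCC6, which encodes Ku70, had 547 and 476 CPM in the sgControl libraries and 614 and 596 CPM in the sg53BP1 libraries. XRCC5, which encodes Ku80, had 623 and 488 CPM against 677 and 641 CPM. Both genes were lowest in sgControl replicate 2, and for XRCC5 sgControl replicate 1 reached almost the level of sg53BP1 replicate 2. The log2 fold change was 0.24 for XRCC6 (95% interval −0.04 to 0.53, edgeR adjusted p = 0.343) and 0.25 for XRCC5 (95% interval −0.08 to 0.57, edgeR adjusted p = 0.406). Without sgControl replicate 1 these values were 0.38 and 0.47, and without sgControl replicate 2 they were 0.15 and 0.088. The ratio of XRCC5 to XRCC6 per length was 0.685 and 0.617 in the sgControl and 0.663 and 0.647 in the sg53BP1 libraries, so the groups overlapped. GENCODE lists 5 pseudogenes named after XRCC6, and reads of the gene and its copies may have been split.

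PRKDC encodes DNA-PKcs, the kinase that Ku recruits and that holds the ends together while they are processed. Its level was 557 and 474 CPM in the sgControl libraries and 751 and 639 CPM in the sg53BP1 libraries, with no overlap. The mean was 515 ± 58.3 CPM (SD, n = 2) against 695 ± 79.4 CPM, or 0.43 on the log2 scale (standard error 0.14, 95% interval 0.11 to 0.75, edgeR adjusted p = 0.133). Replicate 2 was the lower library in both groups, by 0.23 on the log2 scale in each. In the authors' deposited table PRKDC had a log2 fold change of −0.45 for control over knockout and an adjusted p of 0.0720. Per length, PRKDC was at 0.217 and 0.213 of the XRCC6 level in the sgControl and at 0.261 and 0.229 in the sg53BP1 libraries.

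Ligase IV seals the break and is stable only in a complex with XRCC4, which has no enzymatic activity of its own. XRCC4 had 269 and 262 counts in the sgControl libraries and 437 and 395 in the sg53BP1 libraries, or 16.2 and 15.6 CPM against 24.2 and 21.9 CPM. It had the largest log2 fold change of the 9 genes in the fit to all libraries, 0.54 (standard error 0.16, 95% interval 0.17 to 0.90, edgeR adjusted p = 0.107). Its value stayed between 0.47 and 0.61 when any 1 library was left out. LIG4 had 36.4 and 34.1 CPM in the sgControl and 46.1 and 41.9 CPM in the sg53BP1 libraries. Its log2 fold change was 0.32 (standard error 0.14, 95% interval 0.01 to 0.63, edgeR adjusted p = 0.241). Both genes were closely matched within each group and did not overlap between groups. The ratio of LIG4 to XRCC4 per length was 1.37 and 1.33 in the sgControl libraries and 1.16 in both sg53BP1 libraries. With 2 libraries a group an exact permutation test of this ratio cannot give a two-sided p below 0.333.

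The genes whose levels moved most like XRCC4 over the 4 libraries included SNHG1, a host gene of small nucleolar RNAs, and UNG, a uracil-DNA glycosylase of base excision repair. They were at distances of 0.0234 and 0.0442 from XRCC4, measured as the Euclidean distance between log2 CPM values centred on each gene's own mean, among 10406 genes with a mean of at least 5 CPM. UNG had 60.2 and 56.7 CPM in the sgControl and 88.7 and 83.0 CPM in the sg53BP1 libraries. Since XRCC4 was taken for its small p between the groups, a difference between the groups in these genes is part of how they were chosen.

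NHEJ1 encodes XLF, which aligns the ends with XRCC4 before ligation, and it was hardly counted. The table gave 5 counts in sgControl replicate 1 and 0 in the other 3 libraries, and the gene did not pass the low-count filter. A count of 0 allows up to 3 counts in a library, 0.166 to 0.179 CPM in these 3. In GENCODE release 29 the exons of AC068946.1, a protein-coding gene on the same strand, cover 65.4% of the exon bases of NHEJ1. Programs that assign reads to genes can drop a read that falls on more than 1 gene. Whether this happened here was not tested, and the values are no measure of how much NHEJ1 RNA the cells held.

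DCLRE1C, POLL and POLM process the ends before ligation. DCLRE1C encodes Artemis, a nuclease that opens hairpins and trims overhangs, and it had 12.8 and 12.1 CPM in the sgControl and 11.2 and 10.3 CPM in the sg53BP1 libraries. Its groups did not overlap, with a log2 fold change of −0.21 (95% interval −0.66 to 0.23, edgeR adjusted p = 0.624). POLL encodes DNA polymerase lambda, which fills gaps at paired ends, and had 25.2 and 26.4 CPM against 27.5 and 23.2 CPM. Its log2 fold change was −0.03 (95% interval −0.38 to 0.33, edgeR adjusted p = 0.957). POLM encodes the related polymerase mu, which can extend an unpaired end, and had 15.4 and 13.5 CPM against 11.4 and 15.0 CPM. Its log2 fold change was −0.12 (95% interval −0.59 to 0.34, edgeR adjusted p = 0.815). For both polymerases the sg53BP1 libraries lay on either side of the sgControl mean. In this design folds of sg53BP1 over sgControl from 0.77 to 1.25 for POLL and from 0.66 to 1.27 for POLM lie within the interval. Exons of DPCD cover 4.48% of the exon bases of POLL, and exons of SUV39H2 cover 2.51% of those of DCLRE1C, in both cases from the other strand.

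ATM, the kinase that starts break signalling, was set apart by 1 control library. It had 69.4 CPM in sgControl replicate 1 and 113 CPM in sgControl replicate 2, against 75.4 and 69.3 CPM in the sg53BP1 libraries. The other 3 values lay close together and sgControl replicate 2 stood above them, a gap of 0.71 on the log2 scale within the sgControl pair, while the median gap of the 9 core genes in that pair was 0.19. The log2 fold change was −0.34 (standard error 0.24, 95% interval −0.93 to 0.25, edgeR adjusted p = 0.522). It became −0.62 without sgControl replicate 1 (adjusted p = 5.06e-05) and 0.07 without sgControl replicate 2 (adjusted p = 0.811), so its direction rested on that library. The gene was measured with 1152 to 1907 counts a library, and exons of NPAT and C11orf65 cover 1.07% of its exon bases.

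For 5 of the 10 core genes the annotation places the start of another gene, on the opposite strand, at or near their own. In GENCODE release 29 the starts of PRKDC and MCM4 lie 2 bases apart, those of LIG4 and ABHD13 11 bases and those of XRCC6 and DESI1 23 bases, while XRCC4 and TMEM167A overlap by 365 bases and ATM and NPAT by 158 bases. MCM4, a subunit of the replicative helicase, was at 217 ± 11.8 CPM in the sgControl libraries and rose to 333 ± 10.2 CPM (SD, n = 2), a log2 difference of 0.62 (standard error 0.12, edgeR adjusted p = 0.0236), beside 0.43 for PRKDC. The other neighbours had log2 fold changes of −0.26 for the hydrolase-like ABHD13 (edgeR adjusted p = 0.397), −0.13 for DESI1, a desumoylating peptidase (0.696), −0.09 for TMEM167A, a membrane protein of the secretory pathway (0.756), and 0.04 for NPAT, an activator of histone genes (0.935). DPCD, which overlaps POLL, had −0.24 (0.492). In the fit to all libraries XRCC6, LIG4 and XRCC4 thus had positive values beside neighbours with negative ones, and the difference within a pair was not tested. The call of MCM4 was lost without sg53BP1 replicate 1 (adjusted p = 0.466) or replicate 2 (0.435). DESI1 had 0.046 without sgControl replicate 2.

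**Figure D3:**
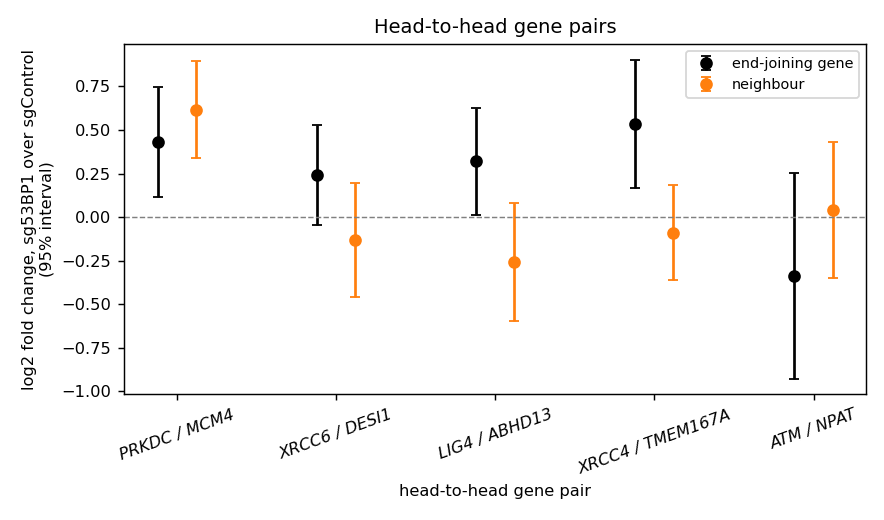
Log2 fold change, sg53BP1 over sgControl, of 5 core end-joining genes (black) and the genes that start beside them on the other strand (orange), with 95% intervals from the edgeR fit to all 4 libraries. MCM4 at 0.62 is the neighbour whose change passed the adjusted threshold, and the intervals of ABHD13, DESI1, TMEM167A and NPAT include 0.

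Counts of called genes among factors that work with the core enzymes are to be read against 5.08% of all tested genes at an adjusted p of 0.05 and 19.3% at an unadjusted p under 0.05, in either direction (edgeR). Of 10 accessory factors tested, 0 were higher and 0 lower at an adjusted p of 0.05, with 0 at an unadjusted p under 0.05, and the median log2 fold change was 0.13. SETMAR, a histone methyltransferase fused to a transposase, had a log2 fold change of 0.45 (edgeR adjusted p = 0.348), and TDP1, which removes protein fragments from DNA ends, had 0.24 (edgeR adjusted p = 0.402). Among 10 genes of break sensing and ATM signalling none was called and 1 had an unadjusted p under 0.05, with a median of 0.05. H2AX, the histone that ATM phosphorylates around a break, had 0.42 (edgeR adjusted p = 0.142), and MDC1, which reads that mark, had 0.36 (edgeR adjusted p = 0.269). H2AX passed when no low-count filter was applied (edgeR adjusted p = 0.0412, with 7.88% of all genes called). Among 8 other kinases of the ATM family and the proteins that bind or fold them none was called and 2 had an unadjusted p under 0.05, with a median of 0.17. These were TTI1, a part of the chaperone of these kinases, at 0.34 (edgeR adjusted p = 0.209), and ATRIP, the partner of ATR, at 0.40 (edgeR adjusted p = 0.259). Without sgControl replicate 1, 3 accessory factors, 1 gene of break sensing and 1 of the kinase list passed, in a fit that called 24.5% of all tested genes. Without sgControl replicate 2, where 18.4% of all were called, 2 genes of break sensing passed.

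Alternative end joining, the backup route that relies on short matching sequences, had 1 called gene among 8, beside 5.08% of all tested genes. At an unadjusted p under 0.05, in either direction, there were 4 of the 8, beside 19.3% of all tested genes (edgeR). LIG1, the main ligase of DNA replication, was at 44.8 ± 4.83 CPM in the sgControl libraries and rose to 74.2 ± 4.47 CPM (SD, n = 2), a log2 difference of 0.73 (standard error 0.14, edgeR adjusted p = 0.0229). The median of the list was 0.30, and 7 of its 8 genes had a positive log2 fold change, as had 47.4% of all tested genes. The count was 5 without sgControl replicate 1 and 5 without replicate 2, in fits that called 24.5% and 18.4% of all tested genes. It was 0 without either sg53BP1 library, where 5 genes were called in all. Of the paralogues of core enzymes, POLB, the gap-filling polymerase of base excision repair, had a log2 fold change of −0.79 (edgeR adjusted p = 0.0686; under DESeq2 it was 0.0477). DCLRE1B, a nuclease of telomeres, had 0.51 (edgeR adjusted p = 0.146). None of the 3 paralogues tested was called by edgeR with all libraries, and 2 had an unadjusted p under 0.05. DCLRE1B passed without sgControl replicate 1 (adjusted p = 2.17e-04), POLB passed without sgControl replicate 2 (4.70e-08), and both passed without the low-count filter (0.0371 and 4.88e-04).

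Genes of S phase and proliferation, called S phase genes below, moved with the groups. All 10 listed were called higher in the libraries labelled sg53BP1, as were 272 of all 13140 tested genes (edgeR). Their median log2 fold change was 0.71 for the 10 listed. The list was already known from earlier results of these data to differ, and is no independent evidence. Its summed level was 1754 to 1924 CPM in the sgControl and 2861 to 2988 CPM in the sg53BP1 libraries. RRM2, a subunit of the enzyme that makes deoxynucleotides, rose 2.05-fold, the helicase subunits MCM5 and MCM2 1.81-fold and 1.68-fold, and the helicase loader CDC6 1.74-fold (edgeR adjusted p between 0.00485 and 0.0106). Without sg53BP1 replicate 1 or 2 none of the 10 was called. The part of S phase genes in the levels of end-joining genes was not tested, and in bulk RNA more cells of a kind and more RNA per cell cannot be told apart.

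**Figure D4:**
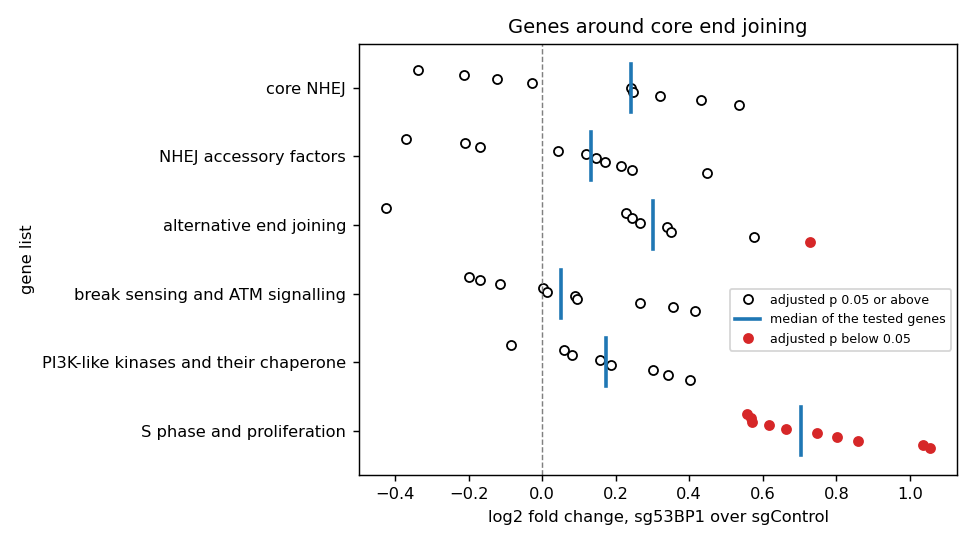
Log2 fold change, sg53BP1 over sgControl, of the tested genes of 6 lists, with 1 point for each gene. Filled red points passed an edgeR adjusted p of 0.05 and blue bars are list medians, which lie at 0.24 for the core genes and 0.71 for the S phase genes.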

How the data were processed

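Total RNA of 4 hTERT-RPE1 libraries was sequenced as paired-end reads of 150 bp, per the labels' protocols. HISAT2 2.1.0, Bowtie2 2.2.3, HTSeq 0.6.0 and genome build hg19 are named in the submitters' processing notes; the step each tool did, the annotation and any use of strand were not given in the sources used here. Whether reads of overlapping genes were told apart by strand is therefore not known. The authors deposited 1 table of raw read counts per gene. It also holds the authors' own comparison: a mean level (signal), a log2 fold change with its standard error, a score (the test statistic), raw p-values and adjusted ones. Its log2 values are control over knockout.

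The 20050 rows were reduced to 19653 identifiers by removing repeats, which held identical counts. The test between groups was the quasi-likelihood test in edgeR 4.0.16, run under R 4.3.3 with TMM scaling, the filterByExpr filter, robust dispersion and group as the only term, with Benjamini-Hochberg adjustment over 13140 genes and a threshold of 0.05. Standard errors and 95% intervals were derived from the F statistic and its degrees of freedom. Alternatives were DESeq2 1.42.0 and its size factors, limma-voom (limma 3.58.1), library totals, other low-count filters, a block for the replicate number, and omission of each library in turn, whose lone partner was then assumed to vary like the other group. The fit was tested on simulated data. The intervals hold the spread between libraries, while the floor of 3 counts covers counting error only. GENCODE release 29 gave exon lengths and overlaps, and RefSeq (GRCh38.p14) the promoters of 8 core genes.

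The core genes and the other lists were chosen with earlier results of these data known. All core genes were named. Of each other list, up to 4 called genes with the smallest adjusted p were named, or the 2 with the smallest p where none was called; for the core gene with the smallest p, the 3 nearest genes were sought, of which 1 is not reported here. Other neighbours of core genes, the retinal pigment epithelium and lymphoid markers given as counts, and genes given only as overlapping were named outside this rule. RAG1, the lymphoid marker tested, had a log2 fold change of 0.39 (adjusted p = 0.859), and of the tested retinal pigment epithelium markers none was called, OTX2 having 0.54 (adjusted p = 0.245) and KRT8 −0.48 (adjusted p = 0.284).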

Additional observations from a re-analysis of the deposited data

How the results depend on the processing

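The count of core end-joining genes past the threshold was 0 with all 4 libraries under DESeq2 size factors, library totals, the DESeq2 Wald test, a minimum mean of 5 CPM, limma-voom and the replicate block, and 1 without the low-count filter. Leaving out 1 library gave 0 to 6. For all genes the count of 667 became 1548 without the low-count filter, 404 with limma-voom and 297 with the replicate block, and lay between 5 and 3358 with 1 library left out; it was 5 without either sg53BP1 library. Same-numbered libraries deviated from their group means with a correlation of 0.0468 across genes, so the numbers were not taken as pairs; with the replicate block MCM4 (adjusted p = 0.0692), LIG1 (0.0759) and PDGFRA (0.0932) lost their calls, PDGFRA also with limma-voom (0.0750). Of the 10 S phase genes 5 passed with the replicate block and 6 with limma-voom, and of the 8 genes of alternative end joining 2 passed with the DESeq2 Wald test or without the low-count filter. Log2 fold changes whose sign turned did so only with 1 library left out. They ranged from −0.15 to 0.095 for POLL, −0.33 to 0.061 for POLM, −0.62 to 0.068 for ATM, −0.14 to 0.20 for NPAT, −0.25 to 0.046 for DESI1 and −0.38 to 2.42 for RAG1, and the cause was not tested. Without any 1 library the 5 genes XRCC5, XRCC6, PRKDC, LIG4 and XRCC4 kept a positive value. That follows from both sg53BP1 libraries lying above both sgControl libraries for these genes, and is no further evidence. With 2 libraries a group, POLM and DCLRE1C, at 185 to 270 counts a library, had standard errors of 0.21 and 0.20.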
